A study of Mus musculus with 9 samples.

Results

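The transcriptome of the hippocampus was examined for genes that change step by step with the dose of IF1. All 9 arrays of the series were used, 3 from IF1-KO, 3 from CRL and 3 from IF1-TG mice, with the genotypes coded 0, 1 and 2 in that order. Of 39429 non-control probes, 24937 (63.2%) were well above background on all 9 arrays and received a trend, which is the slope in log2 signal per genotype step. A probe counted as called when the unadjusted P value of its slope in limma was below 0.05 and the fitted change from IF1-KO to IF1-TG (2 slopes) was at least 1.5-fold, the thresholds of the study's methods. A called probe counted as stepwise when the CRL mean lay between the other genotypes and each step made up at least 0.25 of the whole change. It counted as fully ordered when the arrays of the 3 genotypes followed each other with no overlap.

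The mice were male, 9 months old and labelled C57BL/6J, with 1 hippocampal RNA preparation per array. In IF1-KO mice exon 3 of the floxed Atp5if1 gene was removed by Cre under the Camk2a promoter, so that cells other than forebrain excitatory neurons kept the gene. The floxed line came from C57BL/6N and was crossed with Flp mice of B6;SJL background. IF1-TG mice carried human IF1 under a tetracycline-regulated element and the tTA transactivator under the Camk2a promoter. The IF1 and tTA lines crossed for them both have CBA beside B6 in their strain names. The labels give no alleles for the CRL mice. The 2 models therefore differ in their founder lines and in the transgene each carries, and these cannot be told apart from the dose of IF1. The arrays stood on 3 slides that were aligned with the dose. The IF1-TG mice numbered 1 and 2 were alone on slide 1. All 3 genotypes were on slide 2, with IF1-KO 1, CRL 1 and CRL 2 beside IF1-TG 3. The remaining arrays, namely IF1-KO 2, IF1-KO 3 and CRL 3, were on slide 3.

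IF1 is a small mitochondrial protein that binds the ATP synthase and inhibits it. In neurons, which make most of their ATP by oxidative phosphorylation, inhibition of the enzyme raises the mitochondrial membrane potential and the production of reactive oxygen species, which act as signals to the nucleus. The question put to the arrays was which transcripts sit at one extreme without IF1, at the other with added IF1, and in between in control tissue.

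Atpif1, the mouse gene of IF1, was read first. Its only probe (chromosome 4) gave log2 levels, relative to the 75th percentile of each array, of 6.43, 5.20 and 5.53 in IF1-KO, 6.30, 6.34 and 6.19 in CRL and 6.42, 6.38 and 6.51 in IF1-TG mice. IF1-KO replicates 2 and 3 lay below every other array, whereas IF1-KO replicate 1 was as high as the IF1-TG arrays. The slope was 0.36 (standard error 0.13), and 0.51 without IF1-KO replicate 1. It lost its call without IF1-KO replicate 2 or 3, and the lowest slope with 1 array left out was 0.22. Most of the change lay between IF1-KO and CRL mice (log2 0.56, standard error 0.27). The step from CRL to IF1-TG mice was 0.16 (standard error 0.27), and whether the probe reads the human transcript was not tested. The array labelled IF1-KO replicate 1 thus goes against its label at this gene, and the counts of called, stepwise and fully ordered probes are given with and without it. Within a genotype the arrays correlated at 0.985 to 0.993 over these probes and between genotypes at 0.981 to 0.995. The share of probes well above background was 71.1 to 72.9% in IF1-KO, 72.2 to 74.9% in CRL and 66.7 to 69.6% in IF1-TG arrays.

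The trend called 713 of 24937 probes (2.86%), 421 rising with the dose of IF1 (1.69%) and 292 falling (1.17%). These stood for 694 gene names. At an unadjusted P value below 0.05 alone, 1660 probes (6.66%) passed, and 0 passed once P values were adjusted by Benjamini-Hochberg (smallest adjusted P = 0.741, limma). In this fit no slope is therefore significant over the whole array, and the genes are described by their values. Without IF1-KO replicate 1 the trend called 1096 probes, without IF1-KO replicate 2 it called 449, and 0 passed the adjustment in either case. When the array of each genotype with the most choroid plexus RNA was left out (IF1-KO replicate 3, CRL replicate 2 and IF1-TG replicate 1), 617 were called. Just inside the fold threshold were Cyb5d1 and Taf1 (both 1.502-fold), and just outside it, short of 1.5-fold by under 0.001, Zim3 and Marcksl1.

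**Figure D1:**
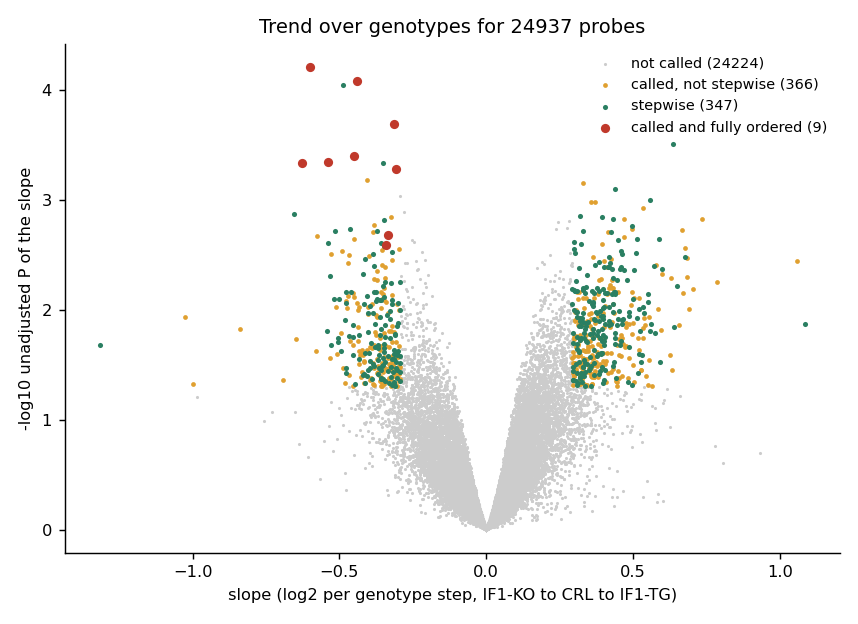
Slope of each of 24937 probes (log2 signal per genotype step, x axis) against -log10 of its unadjusted limma P value (y axis). Grey points are not called, orange points are called with CRL near or past an end, green points are stepwise and red points are called and fully ordered, all 9 of which fell.

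Of the called probes, 347 were stepwise (1.39% of all probes tested), 206 rising (0.826%) and 141 falling (0.565%), in 345 gene names. Without IF1-KO replicate 1 there were 630 stepwise probes (363 rising, 267 falling), 276 of them shared with the 347. The CRL mean lay between the other genotypes in 581 of 713 called probes (81.5%) and in 36.0% of all probes, but the trend itself favours such probes, since a CRL mean off the line adds to the residual. A contrast of IF1-TG with IF1-KO that leaves the CRL deviation out of the residual called 734 probes. Among these the median position of CRL was 0.235 on the way from IF1-KO (0) to IF1-TG (1), and 0.278 over all probes. CRL lay past IF1-KO in 24.3% of the 734 and past IF1-TG in 1.91%, and over all probes in 38.5% and 25.5%. This position rested on single CRL arrays. Among probes called by the trend its median was 0.287, against 0.460 without CRL replicate 3 and 0.183 without CRL replicate 2. Stepwise changes were small. The fold from IF1-KO to IF1-TG had a median of 1.71 in rising probes (at most 4.51) and 1.65 in falling probes (at most 6.20). The largest SD within a genotype had a median of 0.52 in rising and in falling probes (log2), and 0.30 over all probes. Stepwise probes were thus more variable than the array as a whole. They were also dimmer, with a median level of -1.92 in rising and -3.67 in falling probes, and -1.11 over all probes.

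Shifts between slides within a genotype ran along the dose in some comparisons and not in others. In 193 of 206 rising stepwise probes (93.7%) and 106 of 141 falling ones (75.2%), CRL replicate 3, on slide 3 with 2 IF1-KO arrays, lay on the IF1-KO side of the mean of CRL replicates 1 and 2 on slide 2. The same held for 63.8% of all probes. The IF1-TG arrays of slide 1 lay beyond the IF1-TG array of slide 2, in the direction of the trend, in 51 rising (24.8%) and 106 falling probes (75.2%), and in 49.7% of all probes. The IF1-KO arrays of slide 3 lay beyond the IF1-KO array of slide 2, at the other end, in 167 rising (81.1%) and 82 falling probes (58.2%), and in 58.1% of all probes. Within slide 2, the only slide with all 3 genotypes, the order IF1-KO, CRL, IF1-TG held in 169 rising (82.0%) and 62 falling probes (44.0%), and in 28.5% of all probes. Within slide 3, CRL replicate 3 lay on the IF1-TG side of the IF1-KO mean in 135 rising (65.5%) and 103 falling probes (73.0%), and in 49.8% of all probes. These shares are descriptions, since the same arrays chose the probes. With slide as a fixed block 391 probes were called and 228 were stepwise, and 61 of these were stepwise in both fits.

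**Figure D2:**
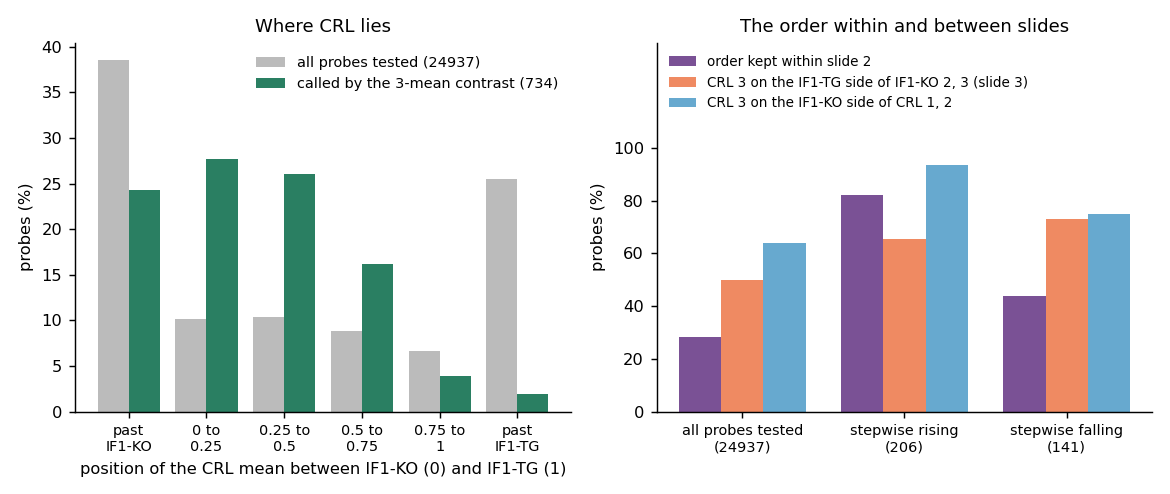
Left, share of probes (%, y axis) by the position of the CRL mean between the IF1-KO mean (0) and the IF1-TG mean (1), for all 24937 probes (grey) and the 734 called by a contrast of the ends (green), which gather between 0 and 0.5. Right, share of probes (%) that kept the genotype order within slide 2 (purple), whose CRL replicate 3 lay on the IF1-TG side of IF1-KO replicates 2 and 3 within slide 3 (orange), and whose CRL replicate 3 lay on the IF1-KO side of CRL replicates 1 and 2 (blue), the last being 93.7% in rising stepwise probes.

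Fully ordered arrays were rare. They were found in 30 of all probes (0.12%), 9 of them called (0.0361%), and all 9 fell with the dose of IF1. The other 21 were not called (12 rising, 9 falling). Without IF1-KO replicate 1, with fewer arrays to order, 44 called probes were fully ordered, 8 of the 9 among them. Those described here are the RefSeq genes Entpd4, Mid1, Socs2, Map7d3 (Mtap7d3 on the array) and Ifnar2, and 3 of the 9 had no RefSeq name (TC1597049, TC1609840 and ENSMUST00000106202).

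Entpd4, a nucleotide-hydrolysing enzyme of the Golgi and lysosomes, was at 3.56, 3.50 and 3.51 in IF1-KO, 3.40, 3.15 and 3.31 in CRL and 2.97, 2.34 and 2.57 in IF1-TG mice. Most of its fall came in the second step (-0.66, standard error 0.16, after -0.24). The slope was -0.45 (standard error 0.09) and its dimmer probe was called in the same direction (-0.40). Entpd4 stayed called under all 20 alternatives that were tried.

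Ifnar2, a chain of the type I interferon receptor, was at 0.17, 0.21 and 0.27 in IF1-KO, 0.05, 0.13 and 0.15 in CRL and -0.71, -0.16 and -0.49 in IF1-TG mice. CRL lay at 0.156 of the way, so Ifnar2 was ordered but not stepwise (slope -0.33, standard error 0.08). Map7d3, a microtubule-associated protein, fell in near-equal steps of -0.34 and -0.28 at a dim signal, from -4.72, -4.87 and -5.03 in IF1-KO through -5.16, -5.12 and -5.36 in CRL to -5.36, -5.55 and -5.56 in IF1-TG mice. Each lost its call under 3 of 20 alternatives, and the Map7d3 slope was -0.09 under normexp with quantile normalization.

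Mid1 and Socs2 were ordered on a dimmer probe. Mid1, a ubiquitin ligase that binds microtubules, was at -3.36, -3.06 and -3.90 in IF1-KO, -4.03, -4.21 and -4.28 in CRL and -4.32, -4.62 and -4.60 in IF1-TG mice. The slope was -0.54 (standard error 0.10), and its brighter probe was called as well (-0.32). Socs2, an inhibitor of growth hormone and cytokine signaling, was at -0.57, -0.60 and -0.80 in IF1-KO, -1.18, -1.02 and -1.02 in CRL and -2.55, -1.68 and -1.50 in IF1-TG mice on the ordered probe (slope -0.63, standard error 0.12). Its other 2 probes gave -0.09 and -0.08 and were not called, and the deposited annotation places the ordered probe and 1 of the others on chromosome 12 whereas RefSeq places Socs2 on chromosome 10. What this probe reads is uncertain. With this probe, 5 of 221 stepwise probes that could be compared were placed on another chromosome than their gene.

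**Figure D3:**
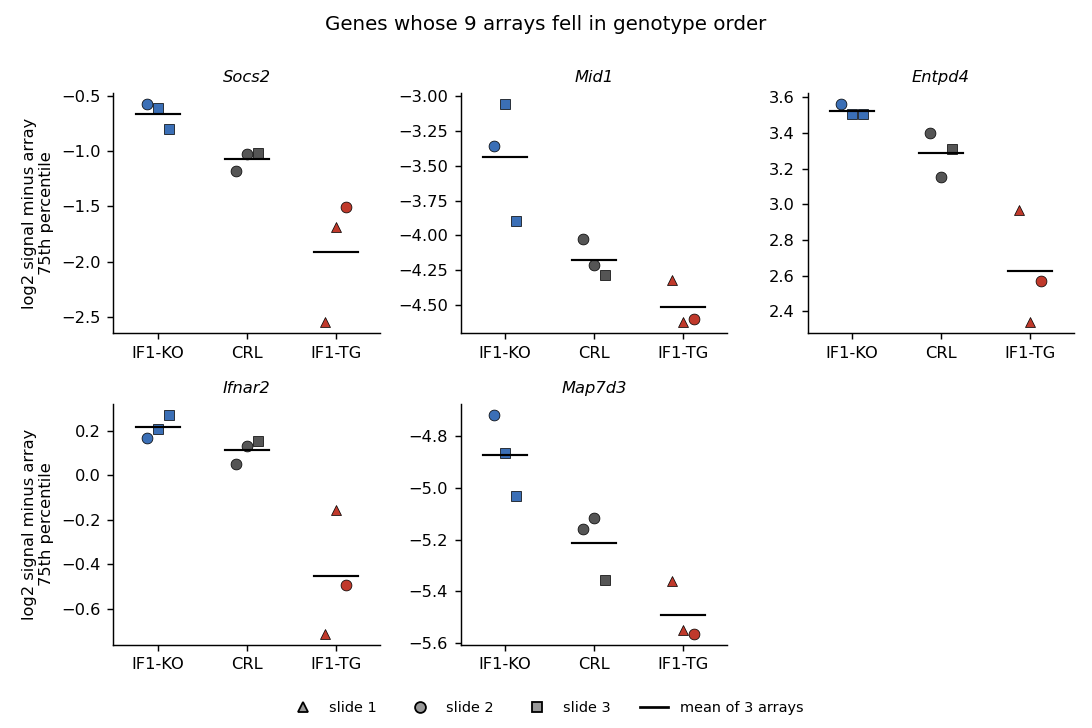
Log2 signal minus the 75th percentile of the array (y axis) on each of 9 arrays for 5 RefSeq genes that were called and fully ordered, by genotype (x axis). Symbols mark slides 1 (triangles), 2 (circles) and 3 (squares), and lines mark the mean of 3 arrays. The 3 Entpd4 levels of IF1-KO mice lie at 3.50 to 3.56 and those of IF1-TG mice at 2.34 to 2.97.

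By size, the leading falling stepwise genes on the brightest probe included Cdhr3 (slope -0.65, standard error 0.15), Brinp3 (-0.54), 8430408G22Rik, now named Depp1 (-0.53), Shprh (-0.53), Gcnt1 (-0.51), Zfand4 (-0.50), A630023P12Rik (-0.49), Tob1 (-0.48) and Lce1m (-0.48). Cdhr3 is a cadherin-related receptor, Brinp3 a neuronal inhibitor of proliferation, Shprh a ubiquitin ligase of DNA repair, Gcnt1 a glycosyltransferase and Tob1 an antiproliferative regulator of mRNA decay. Depp1, an autophagy regulator induced by FOXO factors, was at -2.63, -2.87 and -2.34 in IF1-KO, -3.44, -2.44 and -3.71 in CRL and -3.94, -3.43 and -3.67 in IF1-TG mice. CRL replicate 2 lay among the IF1-KO arrays and CRL replicate 3 among the IF1-TG arrays, so that the ends did not overlap but CRL spanned both. Depp1 (slope standard error 0.15) stayed called under all 20 alternatives, Cdhr3 under 19, and the other 7 named under 15 to 18. The second probes of Shprh and Gcnt1 had slopes of -0.08 and 0.12 and were not called. Lce1m, Zfand4 and A630023P12Rik were read at dim mean levels of -4.30, -4.45 and -4.08. The Lce1m and A630023P12Rik slopes were as small as -0.10 and -0.07 under an alternative.

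The leading rising stepwise genes included 4933405E24Rik (0.53), 4932431P20Rik (0.52), Cbl (0.52), 4931430N09Rik (0.49), 5730419F03Rik (0.49), BC051408 (0.48), Ermn (0.48), Gm13420 (0.46) and Zmynd8 (0.46). Of the genes with a known product, Cbl encodes a ubiquitin ligase of receptor tyrosine kinases, Ermn the oligodendrocyte cytoskeletal protein ermin and Zmynd8 a chromatin reader. Cbl was at -2.50, -3.90 and -2.55 in IF1-KO, -2.68, -2.34 and -2.74 in CRL and -1.82, -1.82 and -2.18 in IF1-TG mice (slope standard error 0.16). The IF1-TG arrays lay above all others, and CRL overlapped IF1-KO. For 4931430N09Rik and 5730419F03Rik the first 2 CRL arrays lay in or above the IF1-TG range (-1.39 and -1.69, and -3.16 and -3.12) and CRL replicate 3 lay within the IF1-KO range for the first (-2.77) and below it for the second (-4.43). In these the intermediate mean of CRL is an average of arrays at both ends. Cbl stayed called under 19 of 20 alternatives, BC051408 under 10, and the others named under 14 to 18. Gm13420 and BC051408 were read at dim mean levels of -6.06 and -5.19, and the Gm13420 slope was as small as 0.12 under an alternative. Zmynd8 was at 2.13, 0.94 and 2.18 in IF1-KO, 2.39, 2.17 and 1.81 in CRL and 2.72, 2.48 and 2.81 in IF1-TG mice. IF1-KO replicate 2 was thus the only array far below the others. The other Zmynd8 probes had slopes of 0.28 and 0.04 and were not called.

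Of the 713 called probes, 31 (20 rising, 11 falling) stayed called under the 16 alternatives that test the same probes and were planned, which include slide as a fixed block and each array left out. This set was picked after its values had been seen. All 31 were also called without the 3 choroid plexus arrays. Under the 16 alternatives CRL stayed between the other genotypes in 28 of the 31, and in 27 when the choroid plexus setting is included, where Depp1 is lost. In both cases 9 were stepwise under each setting. Its falling RefSeq genes included Entpd4, Mid1, Socs2, Depp1, Caprin1 (on the dimmest of 3 probes), C1ra, Pisd-ps3 and Tmem254c. The rising ones were Unc13c, Laptm5, Kdm5b, Aqp4, Akap11, Iqsec3, Nhsl2, Tfrc, Olfr173 and Gm5176. Laptm5, a lysosomal membrane protein of hematopoietic cells and microglia, was at -2.33, -2.36 and -1.74 in IF1-KO, -1.54, -1.73 and -2.00 in CRL and -1.02, -1.68 and -1.22 in IF1-TG mice. Its brighter probe had a slope of 0.42 (standard error 0.11) and its dimmer probe 0.46, both called. Kdm5b, a histone demethylase, had CRL at 0.170, and Iqsec3, an exchange factor of inhibitory synapses, at 0.800, so that neither was stepwise. The dimmer probes of Kdm5b (0.17 and 0.003), Pisd-ps3 (-0.08) and C1ra (-0.33) were not called. The brightest probes of Akap11, Aqp4, Caprin1, Iqsec3, Nhsl2 and Tfrc were others, with slopes of -0.04, 0.20, 0.12, 0.04, 0.05 and -0.03, and were not called.

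Genes with several tested probes were also read on their other probes. The other probes of genes with a stepwise probe (154 probes of 113 genes) had the same sign in 104 cases (67.5%), and 11 were called (7.14%). Over all genes with several probes, the dimmer probes had the sign of the brightest in 55.3%, and 176 of 5323 were called (3.31%). All these probes were read on the same arrays. An effect of slide, dissection or label would repeat in them, so they cannot check the trend. The shares have unlike references, a probe picked by its slope in the first and the brightest probe in the second. No conclusion is drawn from the gap.

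Synaptic vesicle release genes held 1 called gene of 32, near the share of all genes by brightest probe (2.74%). Unc13c encodes a Munc13 protein that primes synaptic vesicles for fusion. Its levels were -2.39, -2.70 and -1.66 in IF1-KO, -2.11, -1.47 and -1.83 in CRL and -1.61, -1.33 and -1.18 in IF1-TG mice, with 2 near-equal steps of 0.45 and 0.43 (standard error 0.27 each). The ends did not overlap, IF1-KO replicate 3 lying just below IF1-TG replicate 1. The slope was 0.44 (standard error 0.13), and Unc13c stayed called under all 20 alternatives. The list had a median slope of 0.01, as all genes had. In bulk tissue a lower share of a cell type and less RNA per cell cannot be told apart.

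The regulatory sequence upstream of stepwise genes was taken from RefSeq (GRCm38.p6) for members that held in the alternatives or are described here, as the 250 bases before the transcription start, 5′ to 3′ on the gene's strand. Capitals mark matches, on either strand, to the CCAAT box (CCAAT), the GC box (GGGCGG) and the antioxidant response element (TGACNNNGC). Unc13c (chr9:73969038-73969287, minus strand) and Ermn (chr2:58052865-58053114, minus strand) rose, and Depp1 (chr6:116650434-116650683, plus strand) and Map7d3 (chrX:56822326-56822575, minus strand) fell:
Unc13c: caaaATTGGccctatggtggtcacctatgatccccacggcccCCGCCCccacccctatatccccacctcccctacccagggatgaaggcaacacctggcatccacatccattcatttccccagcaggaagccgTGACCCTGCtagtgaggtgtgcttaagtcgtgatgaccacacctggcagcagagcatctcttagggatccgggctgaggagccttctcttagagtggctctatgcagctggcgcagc
Ermn: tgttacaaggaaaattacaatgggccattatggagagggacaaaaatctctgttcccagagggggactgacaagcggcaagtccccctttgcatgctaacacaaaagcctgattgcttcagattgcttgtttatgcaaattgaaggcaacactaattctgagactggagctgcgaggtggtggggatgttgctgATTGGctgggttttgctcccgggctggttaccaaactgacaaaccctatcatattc
Depp1: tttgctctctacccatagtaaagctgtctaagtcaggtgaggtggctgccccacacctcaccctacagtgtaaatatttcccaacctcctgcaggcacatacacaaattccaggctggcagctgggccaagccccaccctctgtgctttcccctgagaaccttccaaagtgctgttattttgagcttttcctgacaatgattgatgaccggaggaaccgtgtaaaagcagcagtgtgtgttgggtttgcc
Map7d3: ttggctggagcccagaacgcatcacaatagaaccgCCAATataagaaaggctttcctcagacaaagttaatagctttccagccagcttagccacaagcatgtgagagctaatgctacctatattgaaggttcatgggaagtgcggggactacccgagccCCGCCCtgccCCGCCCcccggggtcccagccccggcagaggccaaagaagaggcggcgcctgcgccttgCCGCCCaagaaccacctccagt

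The Depp1 stretch held none of the 7 motifs searched, the other 4 being the cAMP response element (TGACGTCA), the E-box (CACGTG), the FOXO element (GTAAACA) and the TATA box (TATAAA). RefSeq promoters were matched for 96 of 119 rising and 98 of 115 falling stepwise genes, with 139 and 136 promoters. The antioxidant response element was in 7.19% of rising, 9.56% of falling and 11.6% of all promoters of tested genes (15685). The CCAAT box was in 37.4%, 31.6% and 34.6%. The GC box was in 46.0%, 40.4% and 52.6%, the E-box in 7.91%, 5.88% and 7.66%, and the cAMP response element in 2.16%, 1.47% and 2.43%. The TATA box was in 6.47% of rising, 14.0% of falling and 7.52% of all promoters, and the FOXO element in 1.44%, 5.88% (8 promoters) and 2.26%. Promoters of falling genes had a median GC content of 52.4%, those of rising genes 58.0% and all 58.8%. These are descriptions of letters, without a test.

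Position was examined with the mm9 coordinates of the probes. Stepwise probes made up 0.746% (chromosome 8) to 2.40% (chromosome 12) of the probes tested on an autosome or X. Within 10 megabases of Atpif1, 9 of 430 probes were called (2.09%) and 6 were stepwise (1.40%), near the shares of the array. In 413 windows of 5 megabases with at least 20 probes the median share called was 2.63%. Among the densest was 70 to 75 megabases on chromosome 9, where 6 of 45 probes were called (13.3%), 5 rising, among them Unc13c and ENSMUST00000160499 of the 31 probes above.

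The lists of energy metabolism held 1 stepwise gene, Cox7b, where 272 of 19614 genes were stepwise by brightest probe. Of 15 ATP synthase subunit genes 0 were called (0 at an unadjusted limma P below 0.05), against 2.74% of all genes by brightest probe. Of the 15, 11 had positive slopes (10547 of 19614 among all genes), and the list median was 0.07. Of 60 subunits of respiratory complexes I, III and IV, 1 was called, Cox7b, a complex IV subunit, with a median slope of 0.01 for the list. Cox7b was at 4.70, 5.31 and 5.21 in IF1-KO, 4.76, 4.05 and 5.19 in CRL and 4.25, 4.34 and 4.74 in IF1-TG mice. Its genotypes overlapped, its slope was -0.32 (standard error 0.14), and it stayed called under 10 of 20 alternatives. The complex III subunit Uqcrq had near-equal positive steps below the fold threshold on its brightest probe (slope 0.22, standard error 0.08). Of 25 glucose uptake and glycolysis genes 0 were called, with Gapdh (0.23 on the brightest of 9 probes, the others at -0.07 to 0.18), Eno1 (0.18) and Eno2 (0.17) at unadjusted P below 0.05. Of 19 AMPK and mTOR genes 0 were called, and of 71 mitochondrial ribosome genes 1, Mrps36 (-0.29). Of 20 genes of mitochondrial dynamics and biogenesis 1 was called, the prohibitin gene Phb (-0.38), in which IF1-KO and CRL mice had the same level (2.40 each) and IF1-TG mice were lower (1.65). Its second probe was not called (-0.12).

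The antioxidant list, 26 genes with 0 called, held 3 genes whose CRL mean lay between the others and whose slope had an unadjusted limma P below 0.05, all short of the fold threshold. Gpx4, the glutathione peroxidase that reduces lipid peroxides, was fully ordered, at 5.13, 5.31 and 5.16 in IF1-KO, 5.05, 5.02 and 5.12 in CRL and 4.44, 4.55 and 4.95 in IF1-TG mice (slope -0.28, standard error 0.07). Prdx6 had a positive slope of 0.20 (standard error 0.05) and Keap1, the inhibitor of the antioxidant factor NRF2, of 0.23 (standard error 0.09), with mean levels that went from 4.39 through 4.59 to 4.78 and from 2.44 through 2.68 to 2.90. These 3 genes were picked by their P values within the list, and their directions differ.

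Among genes of calcium handling, 30 of 37 had positive slopes (10547 of 19614 among all genes) and the median slope was 0.07 against 0.01 over all genes, with a range of 0.04 to 0.10 over 13 alternatives. The list median relative to the mean of the CRL arrays was -0.01, -0.08 and -0.02 in IF1-KO, 0.01, 0.10 and -0.06 in CRL and 0.19, 0.07 and 0.09 in IF1-TG mice, so that the IF1-TG arrays lay above the IF1-KO arrays and CRL overlapped both. 1 gene was called (2.74% of all genes by brightest probe), Plcb4, a phospholipase C that releases calcium through inositol trisphosphate (slope 0.36, standard error 0.08). Its CRL mean (-2.73) lay by the IF1-KO mean (-2.87) and not by that of IF1-TG mice (-2.16). Its other 2 probes were not called (0.02 and 0.12). Itpr2 (0.25), an inositol trisphosphate receptor, Stim1 (0.21), the calcium sensor of the endoplasmic reticulum, and Slc8a2 (0.11), a sodium calcium exchanger, had unadjusted P below 0.05. The list held 0 stepwise genes.

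Among receptors, Gabra2, the alpha2 subunit of the GABA A receptor, was called with a slope of 0.53 (standard error 0.12; dimmer probe 0.73, also called), and Grid1, a delta glutamate receptor, with -0.36 (standard error 0.11). In both genes CRL lay by the IF1-KO mice. The Gabra2 means were -0.49, -0.36 and 0.57 and the Grid1 means -1.43, -1.36 and -2.15, by genotype in the order of the dose. The other 12 GABA A receptor genes and 23 glutamate receptor genes were not called, nor were any of 24 postsynaptic scaffold, neurexin and neuroligin genes, 38 potassium channel genes, 27 calmodulin-dependent and MAP kinase genes, 23 genes of glutamate, GABA and dopamine metabolism or 21 CD40 and NF-kB genes on their brightest probe. Among all genes 2.74% were called by brightest probe. Of 35 genes of actin, Arp2/3 and WAVE, 1 was called, Cfl1, the actin-severing protein cofilin. It was at 5.24, 5.61 and 5.63 in IF1-KO, 5.00, 4.41 and 5.53 in CRL and 4.34, 4.87 and 5.06 in IF1-TG mice (slope -0.37, standard error 0.14). Its other 2 probes had slopes of 0.12 and -0.06 and were not called, and it stayed called under 14 of 20 alternatives.

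The qPCR panel was picked with these arrays in hand and is no independent set. Of its 8 genes, 0 were called on the brightest probe (1 at an unadjusted limma P below 0.05). Tia1 (-0.27), Camk1d (-0.35), Gps2 (-0.12), Ikbkap (-0.11), Actg1 (-0.13) and Dld (-0.07) had negative slopes and Camk2b (0.12) and Map2k4 (0.09) positive ones. In Tia1, Camk1d and Gps2 the CRL mean lay at 0.09, 0.04 and -0.01 of the way from IF1-KO to IF1-TG. A dimmer Dld probe was called (-0.38). The Actg1 probe is placed on chromosome 16 in the deposited annotation and its gene on chromosome 11 in RefSeq.

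**Figure D4:**
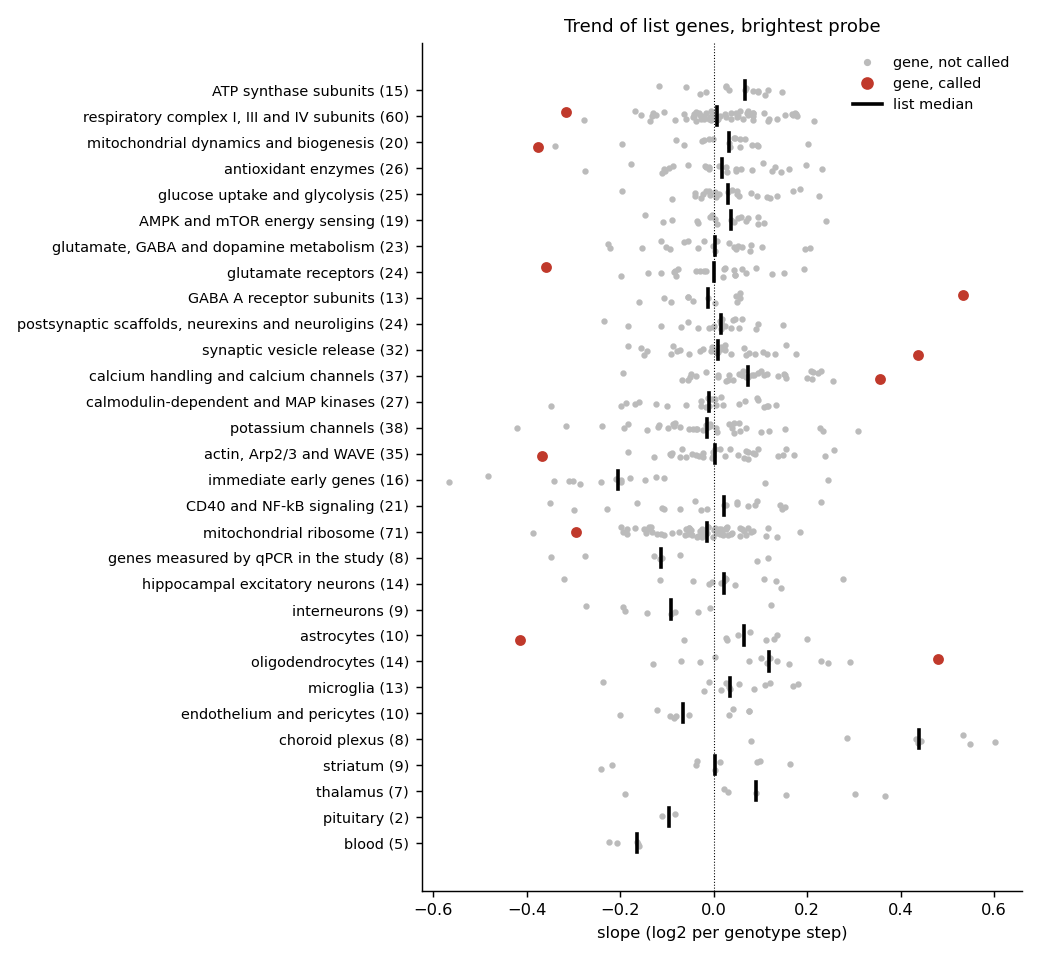
Slope (log2 per genotype step, x axis) of each gene of the pathway and marker lists on its brightest probe, with the number of genes tested in brackets. Grey points are not called, red points are called and black bars are list medians; most lists centre near 0 and hold 0 or 1 called gene, whereas choroid plexus genes centre at 0.44.

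Markers of cell types were read beside these results. Over all genes by brightest probe, 10547 of 19614 had positive slopes and 2.74% were called. Among 14 oligodendrocyte markers 11 had positive slopes (median 0.12) and 1 was called, Ermn, at 1.25, 1.30 and 0.64 in IF1-KO, 1.57, 1.85 and 0.82 in CRL and 2.06, 1.79 and 2.22 in IF1-TG mice (slope 0.48, standard error 0.14). CRL replicate 3 lay among the IF1-KO arrays, and the second Ermn probe gave 0.05. The myelin genes Cnp (0.24) and Mal (0.29) had unadjusted P below 0.05, while Mbp (-0.07) and Mag (-0.03) did not. The list median was lowest in IF1-KO replicate 2 (-0.52 relative to the mean of the CRL arrays) and at 0.10, 0.15 and 0.01 in IF1-TG mice. Among 10 astrocyte markers 1 was called on the brightest probe, the gap junction gene Gjb6. It fell (slope -0.42, standard error 0.17) while 8 of the 10 had positive slopes, and it stayed called under 14 of 20 alternatives. Gjb6 was at 1.86, 1.81 and 1.72 in IF1-KO, 1.02, 0.92 and 1.84 in CRL and 0.10, 1.34 and 1.45 in IF1-TG mice, so that CRL replicate 3 stood with the IF1-KO arrays. The dimmer probe of the marker Aqp4 was called and rose (slope 0.39, standard error 0.09). That probe is among the 31 above, whereas the brightest Aqp4 probe was not called (0.20).

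**Figure D5:**
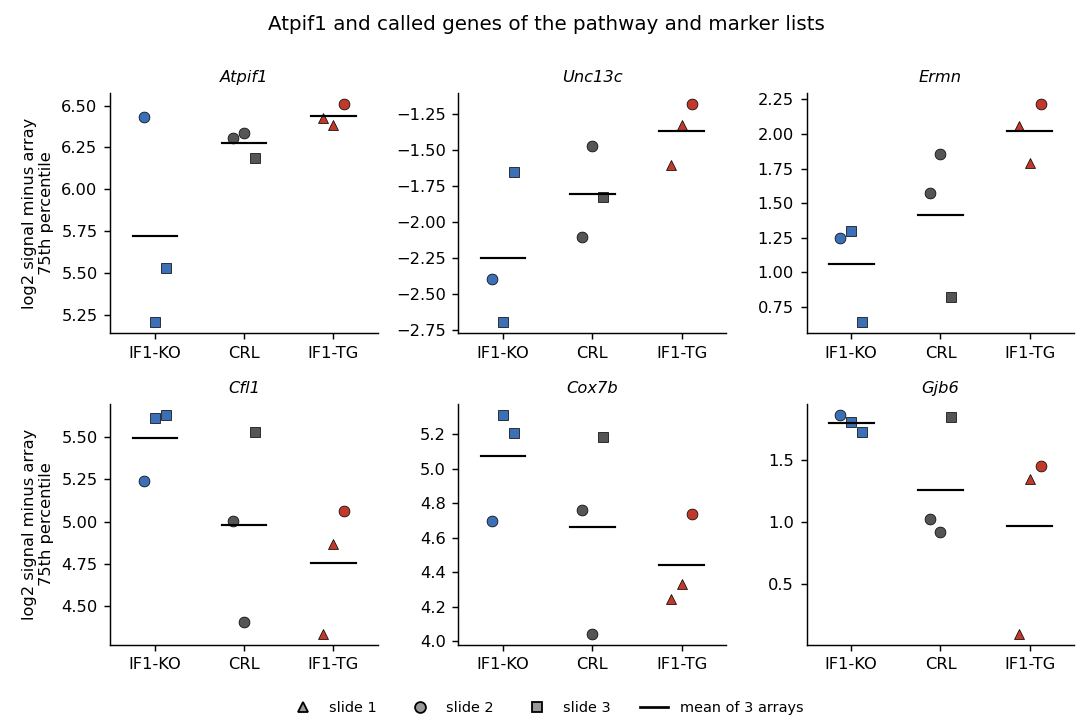
Log2 signal minus the 75th percentile of the array (y axis) on each of 9 arrays for Atpif1 and 5 called stepwise genes of the lists, by genotype (x axis) with slides 1 to 3 as triangles, circles and squares and means as lines. CRL replicate 3 (square) stands at the level of the IF1-KO arrays in Ermn, Cfl1, Cox7b and Gjb6, and IF1-KO replicate 1 stands at the IF1-TG level in Atpif1.

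Among all genes by brightest probe 9067 of 19614 had negative slopes and 2.74% were called. Of 9 interneuron markers 8 had negative slopes (median -0.09) and 0 were called. Of 14 markers of hippocampal excitatory neurons, 13 microglial, 10 vascular, 9 striatal, 7 thalamic and 2 pituitary markers 0 were called. Immediate early genes, which answer recent neuronal activity, had negative slopes in 14 of 16 cases with a median of -0.20, and 0 were called. Their list median ranged from -0.66 to 0.65 among IF1-KO, from -0.50 to 0.77 among CRL and from -0.89 to 0.03 among IF1-TG arrays. Choroid plexus RNA varied most between arrays. The median of its 8 markers, relative to the mean of the CRL arrays, was 3.34 in IF1-TG replicate 1, 2.23 in CRL replicate 2, 1.59 in IF1-KO replicate 3 and from -2.07 to -0.66 in the other 6 arrays. The 8 slopes were positive (median 0.44, and -0.41 to 0.94 over 13 alternatives) and 0 were called. The median of 5 blood markers was highest in CRL replicate 2 (3.21). The part of these cell types in the slopes above was not tested, and 310 probes were stepwise without the array of each genotype that was highest in choroid plexus markers, of which 146 were among the 347. Of the 617 probes called without these arrays, 348 were among the 713.

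Departure from a straight line was tested as the CRL mean minus the mean of IF1-KO and IF1-TG, which is independent of the slope. An unadjusted P below 0.05 was found for 1170 probes (4.69%), with CRL above the line in 448 and below in 722, and 0 passed the adjustment (smallest adjusted P = 0.277 from limma). By size the 3 RefSeq genes with CRL furthest above the line were Slc4a7 (1.74), Pdyn (1.18) and Serpina9 (1.10), and the 3 with CRL furthest below were Stk38l (-1.43), Avp (-1.31) and Hspa4 (-1.24). Slc4a7, Serpina9 and Avp spread widely within genotypes, and their departures did not reach an unadjusted P of 0.05. Pdyn, the precursor of dynorphin in granule cells, was at -0.13, 0.90 and 0.69 in IF1-KO, 1.73, 1.32 and 1.74 in CRL and 0.36, 0.11 and 0.59 in IF1-TG mice. Every CRL array lay above every array of the other genotypes (departure standard error 0.23; adjusted P = 0.952, limma). Hspa4, a heat shock protein, was low in CRL replicates 1 and 2 (-0.01 and -0.54) and at 1.06 in CRL replicate 3, against 1.19 to 1.58 in the other genotypes. For the Stk38l probe the IF1-KO and CRL levels were alike (-5.11 to -5.73) and the IF1-TG arrays stood at -3.48, -2.89 and -2.89. Stk38l encodes a kinase of neurite growth, but this probe lies on chromosome 1 in the deposited annotation, unlike the gene, and the other 2 probes had slopes of 0.29 and 0.16. With the contrast of the ends in place of the line, this probe passed the adjustment (adjusted P = 0.0373 from limma, slope 1.06, standard error 0.09). Its change lay in the second step (log2 2.49), so it was no stepwise gene.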

How the data were processed

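Hippocampal RNA of 9 mice was hybridised to one-colour Agilent mouse gene arrays. The authors deposited the spot intensities of Feature Extraction 10.7.3.1, background-subtracted and detrended within each array, and not normalized between arrays. Processed intensities were taken to log2, and the 75th percentile of the array was subtracted. Control and outlier spots were left out, spots of a probe were averaged, and probes well above background on all 9 arrays (marks as deposited) were kept; 20840 of them had a RefSeq name. No spot was saturated. The number of arrays limits the precision, as do probes read at a dim signal.

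Slopes were fitted with limma 3.58.1 (lmFit and eBayes) under R 4.3.3, on genotype as 0, 1 and 2 with no block, and P values are unadjusted unless called adjusted (Benjamini-Hochberg over all probes). With 3 arrays in each genotype the slope is (IF1-TG minus IF1-KO)/2, and CRL enters through the residual. Departure and single steps came from the same model with 3 means. Replicates are separate mice. Lists were read on the brightest probe of each gene. Named genes are Atpif1, genes past the adjustment, the 10 largest stepwise slopes and the 5 largest fully ordered slopes in each direction, up to 3 stepwise genes of each pathway list, called markers, the qPCR genes and the 3 largest departures in each direction; further names were picked with their values in view. The members and the 19 pathway and 11 marker lists were chosen with earlier results of these data known. The steps were tested on simulated data. The alternatives were normexp (offset 50) with quantile normalization, quantile normalization, other filters on dim probes, slide and replicate blocks, eBayes options, averaging over probes of a gene, the contrast of the ends, other thresholds and each array left out; leaving out the choroid plexus arrays was chosen after seeing the data. Coordinates of probes are mm9, as deposited. Some genes that met the rule are not reported here.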

Additional observations from a re-analysis of the deposited data

How the results depend on the processing

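Most counts moved with the processing. Without a filter on dim probes 2664 probes were called (1944 rising, 720 falling), 820 were stepwise, 24 fully ordered and 3105 off the line. With slide as a fixed block these were 391 (214 and 177), 228, 67 and 2412, and 104 called probes were shared with the result above. Normexp with quantile normalization gave 251 rising and 3 fully ordered probes, and 47.9% of its calls rose (59.0% above). Probes well above background in at least 1 genotype gave 544 falling (45.8% of calls rose) and 16 fully ordered probes, and 1 past the adjustment, Lama3 (slope -0.94, adjusted P = 0.0288 from limma; the probe entered only through the genotype where it was bright, so that filter partly fixed its difference), while 73.0% rose without a filter. The contrast of the ends gave 1 past the adjustment (Stk38l). With no fold threshold 1660 probes passed, and with no minimum step 581 were stepwise. Without the choroid plexus arrays 99 probes were fully ordered, a looser condition with fewer arrays.

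Replicate numbers did not pair the arrays, since deviations of same-numbered arrays correlated at -0.15 to 0.15 over 9 pairs, and the replicate block gave 716 called and 27 fully ordered probes.

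Leaving out each array in turn gave 449 to 1096 called probes (449 without IF1-KO replicate 2, 1096 without IF1-KO replicate 1), 249 to 661 rising, 200 to 613 falling (33.9% rising without IF1-TG replicate 3), 178 to 630 stepwise, 11 to 87 fully ordered (87 without CRL replicate 3), 621 to 1792 off the line, and 0 to 7 past the adjustment for departure (Pigk, Hspa4, Lrrn4, Cnot8, Simc1, Erh and Golga3 without CRL replicate 3, all with CRL below the line, and Stk38l without IF1-TG replicate 1). None passed the adjustment for slope in these fits.

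The slope of Atpif1 lost its call under normexp with quantile normalization (0.29), slide as a fixed block (0.24), without the choroid plexus arrays (0.31), and without IF1-KO replicate 2 or 3, the range over single arrays left out being 0.22 to 0.51. The slope of Map2k4 turned to -0.0456 as the mean of its 2 probes.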
